A study of Mus musculus with 18 samples.

Results

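Transcripts of 10 heat shock chaperone genes were followed on 18 Affymetrix Mouse430_2 arrays of a mouse cell line called TKO, which the labels describe only as telomere dysfunctional. The genes were Hspa1a, Hspa1b, Hspa8, Hsp90aa1, Hsp90ab1, Hspb1, Dnajb1, Hsph1, Hspd1 and Hspe1, and every probe set that the array annotation pairs with exactly 1 of these symbols was taken. That gave 22 of 45037 probe sets, for 9 of the 10 genes. Hsp90ab1 is not analysed here. All the cells were TKO cells grown in medium with serum, and 3 groups expressed p53ER, a fusion of p53 to an estrogen receptor that works only after 4-hydroxytamoxifen (4-OHT) is added, while the cells of the other 3 had not been infected. In both cell types RNA came from 0 h, from 4 h with 100 nM 4-OHT and from 4 h with vehicle, and each of the 6 groups had 3 arrays, numbered as replicates 1 to 3. Infected cells without the fusion were not analysed here, so the fusion and the infection cannot be told apart. Whether the replicates came from separate cultures is not given, so p-values rest on the scatter among these arrays, part or all of which may be technical.

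Heat shock chaperones bind unfolded or partly folded proteins and keep them from clumping. Hsp70 proteins act in cycles driven by ATP with J-domain partners and nucleotide exchange factors, Hsp90 finishes and holds signalling proteins, small heat shock proteins hold unfolded proteins without ATP, and the Hsp60 and Hsp10 pair folds proteins inside mitochondria. Heat shock factor 1 switches many of these genes on together when it binds heat shock elements, which are inverted repeats of the unit GAA. Hsp90 has a further place in this design, since proteins fused to the hormone-binding part of a steroid receptor are held inactive by Hsp90 until ligand binds.

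RefSeq promoter windows (GRCm38.p6, 250 bases before to 50 after the start) were matched for 7 of the 10 genes, with 10 windows. Pairs of heat shock units were GAANNTTC or TTCNNGAA, both palindromic and so read on both strands at once. They were present in 70% of the 10 windows, for 6 genes, against 15.1% of 32851 windows of the same length. A run of 3 units was GAANNTTC followed directly by NNGAA, or TTCNNGAA by NNTTC, each the reverse complement of the other. It was present in at least 1 window each of Hsph1, Hspd1 and Hspe1, where 0.603% of all windows held it. Dnajb1 held neither motif in its windows. The sequences below are shown because Hspa1a and Hspa1b share nearly all of theirs, because Hspb1 is the member that passed a test, and because Hspd1 and Hspe1 are read from the same block. Each runs 5′ to 3′ on the gene's strand and capitals mark the motif.
Hspa1a (chr17:34972157-34972306, minus strand, the last 150 bases before the start): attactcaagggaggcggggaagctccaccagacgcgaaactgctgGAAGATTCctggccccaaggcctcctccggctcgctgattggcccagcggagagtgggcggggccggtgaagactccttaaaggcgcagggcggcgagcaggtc
Hspa1b (chr17:34959239-34959388, minus strand, the last 150 bases before the start): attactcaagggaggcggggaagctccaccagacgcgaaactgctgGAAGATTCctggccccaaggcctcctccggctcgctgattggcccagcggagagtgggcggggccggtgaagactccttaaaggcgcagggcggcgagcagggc
Hspb1 (chr5:135887769-135887918, plus strand, the last 150 bases before the start): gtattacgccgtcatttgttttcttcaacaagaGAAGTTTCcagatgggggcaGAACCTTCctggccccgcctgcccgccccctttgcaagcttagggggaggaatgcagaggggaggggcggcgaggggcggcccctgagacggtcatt
Hspe1 (chr1:55088053-55088082, plus strand): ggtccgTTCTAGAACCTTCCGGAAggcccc

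The Hspa1a and Hspa1b promoters differed at 3 of the 250 bases before the start, and at 1 of the 150 shown. In both the pair of units began 104 bases upstream. Hspb1 had 2 separate pairs, 117 and 97 bases upstream. The block of Hspe1 began 89 bases upstream. The start of Hspd1 that lies 216 bases away on the opposite strand read the same block 144 bases upstream. The other Hspd1 start lies closer to that of Hspe1, and its window held neither motif. The genes with a motif are not all separate matches, since Hspa1a and Hspa1b are near copies and Hspd1 and Hspe1 read the same block. These matches describe the letters and are not measured binding sites.

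Signals were scaled to a common 2% trimmed mean of 82.1 and are given as log2(signal + 4.11), which understates the change of low signals. Before scaling the trimmed mean ran from 47.2 to 147 between arrays. Of the marker genes, all 7 mesenchymal ones passed the filter on dim probe sets, and Col1a1, Col1a2, Vim and Fn1 were brighter than over 99% of probe sets. Of the other types' markers, 4 of 6 epithelial, 3 of 4 blood, 2 of 3 endothelial, 2 of 2 muscle and 3 of 3 neural markers passed it, with Cdh1, Ptprc and Pecam1 below it. The first principal component set off 3 arrays, namely p53ER 0 h replicate 3, p53ER vehicle replicate 1 and, among uninfected cells at 0 h, replicate 2. They are called the 3 arrays apart, and most results that rest on them are given with and without them. The filter kept 27022 probe sets, with 21 of the 22 member probe sets among them. Hsp90aa1 probe set 1441827_x_at did not pass and read 2.25 to 4.64 over the 18 arrays.

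No member was called in any of the 12 comparisons between groups (limma with Benjamini-Hochberg adjustment over 27022 probe sets). In bulk RNA such as this, a change in the number of cells that express a gene and a change per cell cannot be told apart. In p53ER cells 4-OHT minus vehicle gave 0 of 21 member probe sets called, where 0.0148% of all probe sets were called, and 0 members at an unadjusted p under 0.05, where 3.64% of all were. The median member difference was -0.16 and that of all probe sets tested +0.02, and members ran from -0.46 to +0.69. The same comparison in uninfected cells called 0 members, where 0% of all probe sets were called and 1.34% had an unadjusted p under 0.05, and its members ran from -0.13 to +0.31. The difference between both 4-OHT effects called 0 members against 0.00370% of all, with 0 at an unadjusted p under 0.05 against 2.08%.

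**Figure D1:**
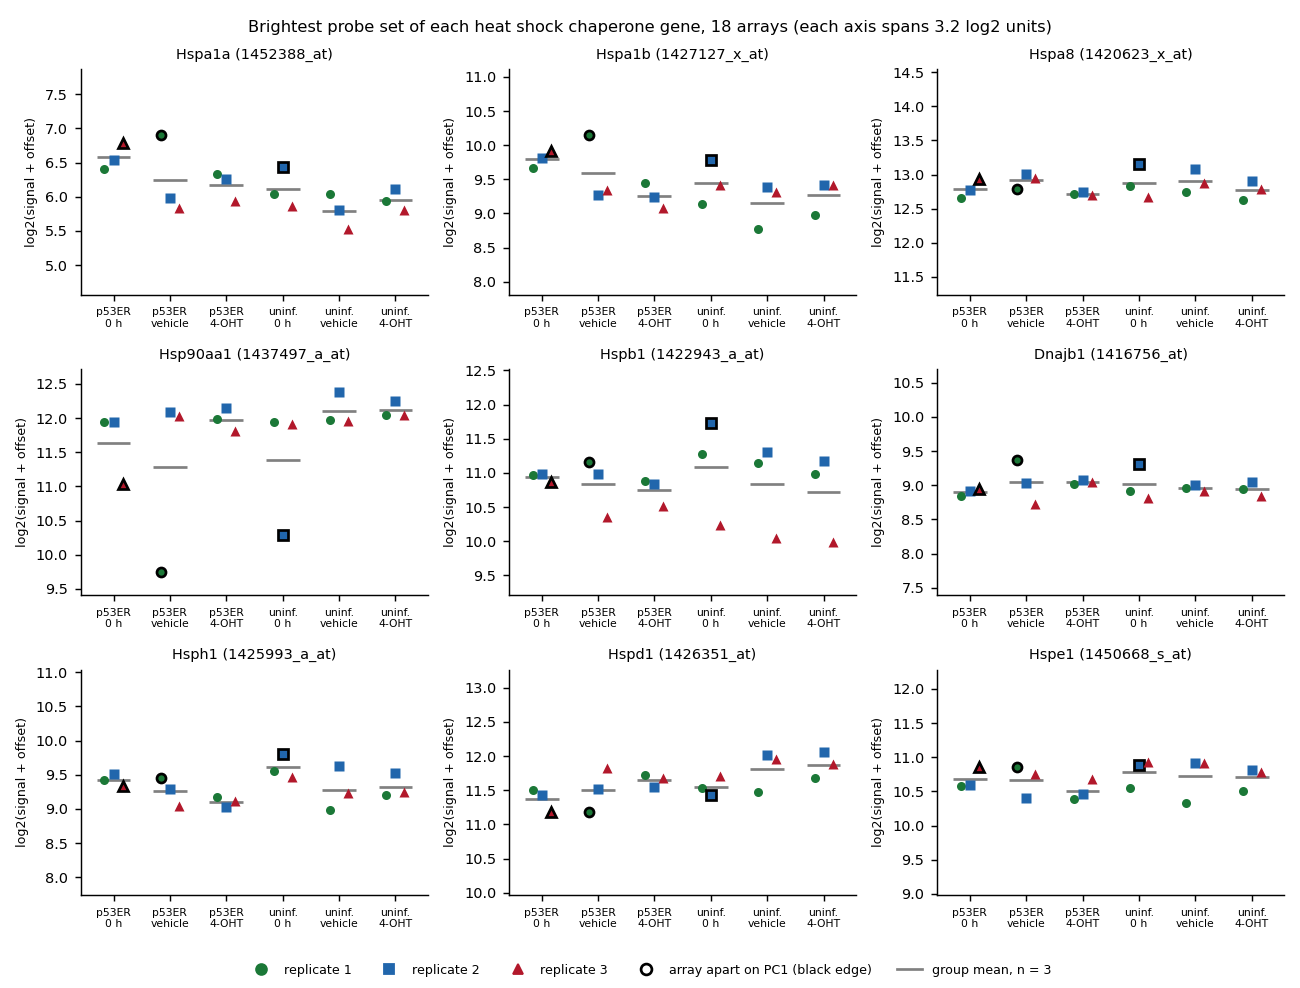
Log2 signal of the brightest probe set of each of the 9 genes on all 18 arrays, by group (horizontal) and replicate number (colour and shape). Grey lines are group means of 3 arrays, black edges mark the 3 arrays apart, and each vertical axis spans the same width at its own level. Hsp90aa1 is low on those 3 arrays, and Hspb1 is lowest on replicate 3 in every group.

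Hspa1a and Hspa1b encode the stress-inducible Hsp70. Their transcripts are near copies, and probe sets ending in _x_at or _a_at can read related sequences, so the division of signal between them is uncertain. Hspa1b 1427127_x_at in p53ER cells read 9.66, 9.80 and 9.91 at 0 h for replicates 1, 2 and 3, then 10.15, 9.28 and 9.34 with vehicle and 9.45, 9.24 and 9.08 with 4-OHT. The uninfected cells read 9.14, 9.79 and 9.41 at 0 h, 8.77, 9.39 and 9.31 with vehicle and 8.97, 9.41 and 9.41 with 4-OHT. The high vehicle value was replicate 1, and the 4-OHT arrays overlapped the other vehicle arrays.

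The 4-OHT difference in p53ER cells was -0.33 ± 0.24 (SE) for 1427127_x_at, -0.45 ± 0.26 for 1452318_a_at and -0.44 ± 0.24 for 1427126_at, each with an adjusted p of 0.999. Without the 3 arrays apart these Hspa1b values shrank to -0.05, -0.05 and -0.12, so they rest on p53ER vehicle replicate 1. Hspa1a 1452388_at stood at -0.06 ± 0.27, and at +0.27 without those arrays. In uninfected cells the Hspa1b differences were +0.05 to +0.11 and that of Hspa1a +0.16, with intervals that reached from -0.45 to +0.72.

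At 0 h Hspa1a read 6.41, 6.54 and 6.79 in p53ER cells, and 6.33, 6.26 and 5.93 after 4-OHT. These groups did not overlap, and neither did those of the 3 Hspa1b probe sets. In p53ER cells 4-OHT minus 0 h gave -0.40 for Hspa1a and -0.54, -0.46 and -0.48 for Hspa1b 1427127_x_at, 1452318_a_at and 1427126_at. Only 1427127_x_at had an unadjusted p under 0.05 (0.037), and its adjusted p was 1.00. Without the 3 arrays the values were -0.30 for Hspa1a and -0.48, -0.42 and -0.40 for Hspa1b. This comparison shares its 4-OHT arrays with the one against vehicle, so their values are given side by side only.

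Across all members, 4-OHT minus 0 h in p53ER cells left 8 of 21 probe sets without overlap between groups, against 9.86% of all probe sets. It called 0, against 0.0148%, and 1 had an unadjusted p under 0.05, against 3.77%. Of the 8, 6 were lower with 4-OHT, against 5.34% of all, namely Hspa1a, the 3 of Hspa1b, Hspa8 1420622_a_at and Hsph1 1425993_a_at. The other 2 were higher, against 4.52% of all, Dnajb1 1416756_at (+0.15) and Hspd1 (+0.28). No other comparison between 2 groups left more than 2 of 21 members without overlap, so the 8 were the highest count. Uninfected 4-OHT minus 0 h left 1 of 21, against 3123 of 27022 probe sets. For p53ER vehicle minus 0 h these were 0 of 21 and 1803 of 27022. The 4 Hspa1a and Hspa1b probe sets read closely related sequences and are not separate observations. For a single probe set an exact permutation test of 3 arrays against 3 cannot give a two-sided p below 0.1.

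Averaged over all conditions, p53ER minus uninfected cells gave +0.38 ± 0.15 (SE) for Hspa1a and +0.36 ± 0.15 for Hspa1b 1452318_a_at, with unadjusted p-values of 0.025 and 0.027 and adjusted ones of 0.940 and 0.948. The other Hspa1b probe sets stood at +0.26 and +0.24. Without the 3 arrays the first pair was at +0.29 and +0.27. This comparison called 0 members, against 0.0259% of all, while 4 of 21 members and 1351 of 27022 probe sets had an unadjusted p under 0.05. The single-condition comparisons of the cell types called 0 members as well, against 0% of all at 0 h, 0.00370% with vehicle and 0.0444% with 4-OHT. At an unadjusted p under 0.05 they held 0, 1 and 0 members, against 3.35%, 2.76% and 3.40% of all. The 1 member was Hspa1b 1452318_a_at with vehicle, at +0.54, and +0.14 without the 3 arrays.

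Hspa8 encodes the constitutive Hsp70 that works in unstressed cells. Probe set 1420623_x_at read 12.66, 12.77 and 12.94 at 0 h in p53ER cells, 12.79, 13.01 and 12.95 with vehicle and 12.72, 12.74 and 12.70 with 4-OHT. Its uninfected values were 12.83, 13.15 and 12.67 at 0 h, 12.75, 13.08 and 12.88 with vehicle and 12.63, 12.90 and 12.79 with 4-OHT. All 3 p53ER arrays with 4-OHT lay below all 3 with vehicle, which also held for 1455789_x_at. These were the 2 member probe sets without overlap in that comparison, where 7.83% of all probe sets had none and 3.45% were lower without overlap.

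Their 4-OHT differences in p53ER cells were -0.20 (95% interval -0.51 to +0.12) and -0.22 (-0.56 to +0.12), and -0.26 and -0.25 without the 3 arrays. In uninfected cells their group means were also lower with 4-OHT than with vehicle, at 12.77 against 12.90 and 12.71 against 12.75, with overlap between groups. The first of these differences, -0.13, was the lowest of any member in uninfected cells. In p53ER cells the dim probe set 1431182_at had the lowest member difference, -0.46 (-1.01 to +0.09), with +0.31 (-0.24 to +0.86) in uninfected cells. The difference between both, -0.77 ± 0.37 (SE), did not pass (unadjusted p = 0.052, adjusted p = 1.00). Probe set 1420622_a_at read 9.93 on uninfected 0 h replicate 3 and 11.03 to 11.86 on the other arrays.

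Hsph1 encodes Hsp110, a nucleotide exchange factor for Hsp70. Probe set 1425993_a_at read 9.42, 9.51 and 9.33 at 0 h in p53ER cells, 9.45, 9.29 and 9.04 with vehicle and 9.18, 9.02 and 9.11 with 4-OHT. Its uninfected values were 9.56, 9.80 and 9.46 at 0 h, 8.98, 9.62 and 9.23 with vehicle and 9.21, 9.53 and 9.24 with 4-OHT. Both cell types had their highest group mean at 0 h, 9.42 ± 0.09 and 9.61 ± 0.17 (SD, n = 3), and the 4 groups at 4 h ran from 9.10 to 9.32.

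The mean of the 4 groups at 4 h minus that of the 2 at 0 h was -0.27 ± 0.11 (SE) for 1425993_a_at (unadjusted p = 0.020, adjusted p = 0.550), and -0.20 ± 0.13 for 1423566_a_at. The first stayed at -0.27 without the 3 arrays. In this comparison 2 of 21 members had an unadjusted p under 0.05, against 8.18% of all probe sets, and 0 were called, against 0%. The 4-OHT difference of 1425993_a_at was -0.16 ± 0.17 in p53ER cells and +0.05 ± 0.17 in uninfected cells, and that of 1423566_a_at in p53ER cells was -0.32 ± 0.21. The p53ER values shrank to -0.06 and -0.17 without the 3 arrays.

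Dnajb1, a J-domain protein that hands substrates to Hsp70, was among the most even members. Its within-group SD was 0.12 for 1416755_at and 0.18 for 1416756_at, where the median over the tested probe sets was 0.41. Probe set 1416755_at had group means between 8.27 and 8.34, so the 6 groups had no order beyond the spread of their arrays. The 4-OHT difference in p53ER cells was +0.01 (95% interval -0.34 to +0.36) for 1416756_at and -0.03 (-0.34 to +0.28) for 1416755_at, and in uninfected cells -0.02 (-0.37 to +0.34) and +0.06 (-0.24 to +0.37). Without the 3 arrays the p53ER values were +0.17 and +0.04, so the value near 0 for 1416756_at rests on p53ER vehicle replicate 1, which read 9.37 where its group mates read 9.03 and 8.72.

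Hsp90aa1 encodes the inducible cytosolic Hsp90. Probe set 1437497_a_at in p53ER cells read 11.94, 11.94 and 11.03 at 0 h, 9.75, 12.09 and 12.03 with vehicle and 11.99, 12.14 and 11.80 with 4-OHT. In uninfected cells it read 11.95, 10.29 and 11.91 at 0 h, 11.97, 12.38 and 11.96 with vehicle and 12.05, 12.25 and 12.05 with 4-OHT. The 3 low readings were on the 3 arrays apart, and on the other 15 arrays the probe set stayed between 11.80 and 12.38. Probe sets 1438902_a_at and 1426645_at were also low on these 3 arrays.

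The largest member difference between 4-OHT and vehicle in p53ER cells came from this gene, +0.69 ± 0.53 (SE, 95% interval -0.43 to +1.81, adjusted p = 0.999) for 1437497_a_at. The values were +0.50 for 1438902_a_at and +0.67 for 1426645_at. Without the 3 arrays they were -0.08, +0.02 and +0.03, so the positive values rest on p53ER vehicle replicate 1. In uninfected cells, whose vehicle and 4-OHT groups hold none of the 3 arrays, they were +0.01, +0.04 and +0.07. Differences against 0 h followed the same arrays, at +0.73 to +1.02 for uninfected 4-OHT minus 0 h and +0.19 to +0.44 without the 3 arrays.

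**Figure D2:**
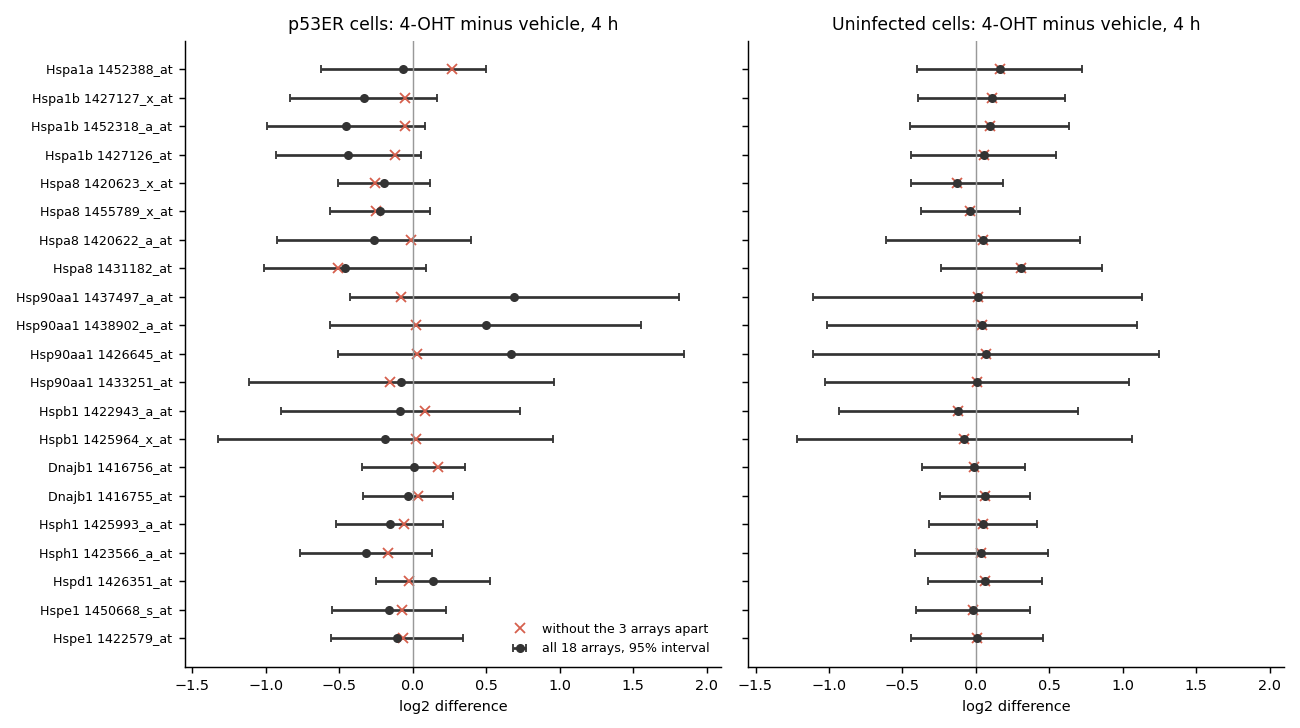
Log2 difference between 4-OHT and vehicle at 4 h for the 21 member probe sets tested, in p53ER (left) and uninfected cells (right). Points are limma estimates over all 18 arrays with 95% intervals, and crosses are estimates without the 3 arrays apart. All intervals cross 0, and the Hsp90aa1 and Hspb1 intervals are the widest.

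Probe set 1433251_at of Hsp90aa1, dim at 3.03 to 5.73, did not share that pattern. It read -0.82 ± 0.28 (SE) in p53ER minus uninfected cells over all conditions, and -0.72 without the 3 arrays (unadjusted p = 0.010, adjusted p = 0.775 over all 18). The 3 bright probe sets of the gene stood at -0.14 to -0.23 in the same comparison. The bright probe sets had SDs within groups of 0.68 to 0.75, and whether the probe sets differ in size beyond such spread was not tested.

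Hspd1 and Hspe1 encode the mitochondrial Hsp60 and its lid Hsp10, which share the promoter block shown. Hspd1 1426351_at in p53ER cells read 11.51, 11.43 and 11.18 at 0 h, 11.18, 11.52 and 11.83 with vehicle and 11.72, 11.55 and 11.68 with 4-OHT. Uninfected cells gave 11.53, 11.43 and 11.71 at 0 h, 11.47, 12.01 and 11.96 with vehicle and 11.68, 12.06 and 11.88 with 4-OHT. Hspe1 1450668_s_at had group means of 10.51 to 10.79, with SDs of 0.15 to 0.34.

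For Hspd1 the groups at 4 h minus those at 0 h gave +0.25 ± 0.11 (SE, unadjusted p = 0.042, adjusted p = 0.595), while Hspe1 1450668_s_at and 1422579_at gave -0.08 and +0.02. Over all conditions p53ER minus uninfected cells gave -0.24 for Hspd1 (unadjusted p = 0.040, adjusted p = 0.977) and -0.12 and -0.09 for the Hspe1 probe sets. The 4-OHT difference in p53ER cells was +0.14 (95% interval -0.25 to +0.53) for Hspd1 and -0.16 and -0.11 for Hspe1. These were -0.03 for Hspd1, whose sign turned, and -0.07 for both Hspe1 probe sets without the 3 arrays. For Hspd1 the 4 h minus 0 h difference then became +0.21 and the cell type difference -0.17.

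The comparisons of vehicle and 4-OHT with 0 h not yet described also called 0 members, against 0% of all probe sets. They were p53ER vehicle minus 0 h, uninfected vehicle minus 0 h and uninfected 4-OHT minus 0 h, with 0 members at an unadjusted p under 0.05 in each, against 3.17%, 6.37% and 5.47% of all. Their member medians were -0.01, -0.06 and -0.09, and those of all probe sets -0.04, -0.06 and -0.05.

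The 3 arrays apart did not move all members alike. On p53ER vehicle replicate 1, Hsp90aa1 1437497_a_at read -2.31 log2 units against the mean of its 2 group mates, while Hspa1a read +0.99 and the Hspa1b probe sets +0.84 to +1.20. On uninfected 0 h replicate 2, the 3 bright Hsp90aa1 probe sets stood at -1.91 to -1.60, the Hspa1a and Hspa1b ones at +0.48 to +0.51 and those of Hspb1 at +0.98 and +1.24. The Hspb1 group mates include the low replicate 3 (10.24 and 8.77), and against replicate 1 alone (11.28 and 10.75) the readings of 11.74 and 11.00 were less far above. On p53ER 0 h replicate 3, the same Hsp90aa1 probe sets stood at -1.60 to -0.91 and Hspa1a and Hspa1b at +0.09 to +0.32.

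Among tested probe sets, 2.25% to 7.24% were lower still than the 3 bright Hsp90aa1 probe sets on p53ER vehicle replicate 1, and 2.18% to 6.04% higher than Hspa1a and Hspa1b. On uninfected 0 h replicate 2 these shares were 3.33% to 5.41% and 15.1% to 16.9%. On p53ER 0 h replicate 3 they were 2.81% to 11.1% and 29.6% to 43.3%, so Hspa1a and Hspa1b did not stand out there. Hspa8 1420623_x_at lay between -0.19 and +0.40 and Hspd1 between -0.50 and -0.19 over the 3 arrays. The raw trimmed mean of these arrays was 57.7 to 122 and their Gapdh 3'/5' ratio 0.782 to 0.949, both within or near the range of the other 15 (47.2 to 147 and 0.797 to 0.950). The arrays were picked by a component that includes these probe sets, so the values are a description, with no test.

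**Figure D3:**
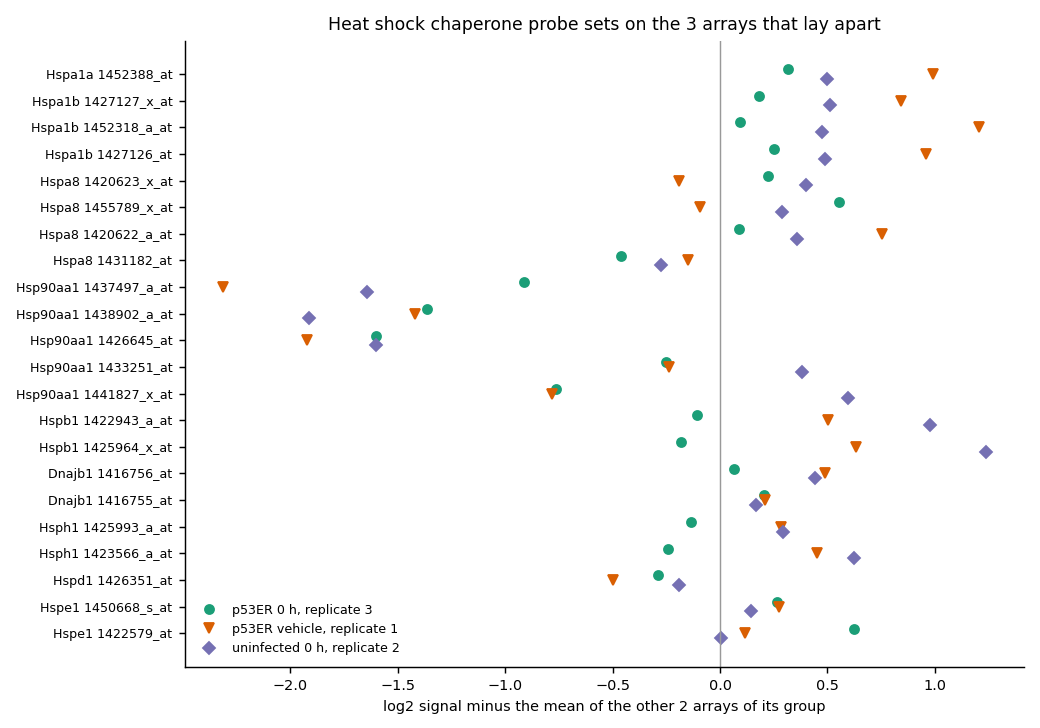
Log2 signal of each of the 22 member probe sets on the 3 arrays apart, minus the mean of the other 2 arrays of its group (horizontal axis). Circles are p53ER 0 h replicate 3, triangles p53ER vehicle replicate 1 and diamonds uninfected 0 h replicate 2. The 3 bright Hsp90aa1 probe sets lie to the left on all 3, and Hspa1a and Hspa1b lie to the right, least so on p53ER 0 h replicate 3.

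Hspb1, the small heat shock protein Hsp27, was the member that differed by replicate number. Probe set 1422943_a_at in p53ER cells read 10.97, 10.98 and 10.87 at 0 h, 11.17, 10.98 and 10.35 with vehicle and 10.89, 10.84 and 10.52 with 4-OHT. In uninfected cells it read 11.28, 11.74 and 10.24 at 0 h, 11.15, 11.31 and 10.04 with vehicle and 10.98, 11.17 and 9.99 with 4-OHT. Replicate 3 was the lowest array in 6 of 6 groups. Against the mean of the other 2 it stood at -0.11 log2 units at p53ER 0 h (an array apart), at -0.72 and -0.35 with vehicle and 4-OHT in p53ER cells, and at -1.27 to -1.09 in the uninfected groups.

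Probe set 1425964_x_at was also lowest on replicate 3 in each group. Uninfected cells gave 10.75, 11.00 and 8.77 at 0 h, 10.53, 10.54 and 9.13 with vehicle and 10.46, 10.51 and 8.99 with 4-OHT. In p53ER cells it read 10.40, 10.21 and 10.12 at 0 h, 10.57, 10.20 and 9.68 with vehicle and 10.14, 10.03 and 9.72 with 4-OHT. Replicate 3 was below both others in all 6 groups for 2 of the 21 members, both of Hspb1, and for 3.99% of all probe sets.

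The 4-OHT difference of Hspb1 was -0.08 (95% interval -0.90 to +0.73) and -0.19 (-1.33 to +0.95) in p53ER cells for 1422943_a_at and 1425964_x_at, and +0.08 and +0.02 without the 3 arrays. In uninfected cells it was -0.12 and -0.08. The intervals come from the model of group means without replicate number, so the low replicate 3 arrays add to their width.

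In a model of 6 group means plus replicate number, replicate 3 minus the mean of replicates 1 and 2 was -0.79 ± 0.13 (SE, adjusted p = 0.000603, limma) for 1422943_a_at and -1.04 ± 0.20 (adjusted p = 0.00272) for 1425964_x_at. Hspb1 was thus lower on replicate 3, at 0.580 and 0.485 times the signal of the other replicates. These were the 2 of 21 members called, both lower, against 14.0% of all probe sets and 7.55% called lower, so the members' count was near the background. What a replicate number stands for is not given in the labels. Replicate 2 minus replicate 1 called 0 members, against 0.00740% of all, and 1 had an unadjusted p under 0.05, against 6.62%.

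The Hspb1 difference was larger in uninfected than in p53ER cells. Fitted alone, uninfected cells gave -1.18 ± 0.08 (SE, adjusted p = 3.19e-05) and -1.67 ± 0.13 (adjusted p = 5.04e-05) for the pair of probe sets, where 7.98% of all were called. Fitted alone, p53ER cells gave -0.39 ± 0.13 (adjusted p = 0.127) and -0.42 ± 0.13 (adjusted p = 0.104), where 4.77% were called. These fits by cell type were added after the data were seen. The test of the difference, p53ER minus uninfected, gave +0.79 ± 0.15 (adjusted p = 0.0357) and +1.25 ± 0.19 (adjusted p = 0.00707), the 2 of 21 members called, against 0.407% of all probe sets and 0.237% called higher. Both are probe sets of 1 gene.

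The first of these interaction calls held in 10 of 27 alternative settings and the second in 24 of 26. Without p53ER 4-OHT replicate 3 neither held. Array measures moved with the same arrays. The raw trimmed mean was 47.2 to 50.6 on replicate 3 of uninfected cells and 64.4 to 73.0 on replicate 3 of p53ER cells, against 57.7 to 147 on replicates 1 and 2. The Gapdh 3'/5' ratio was 0.860 to 0.950 on replicate 3 and 0.782 to 0.841 on the others. Their part in the Hspb1 result was not tested.

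**Figure D4:**
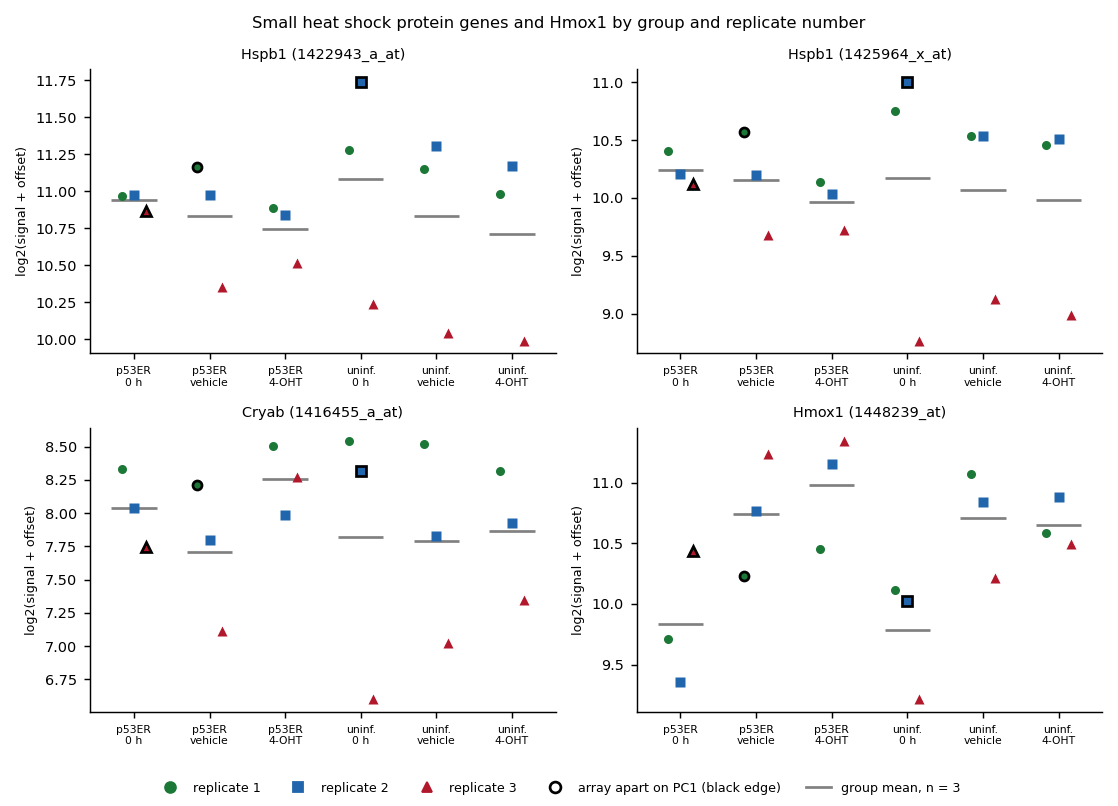
Log2 signal of both Hspb1 probe sets, Cryab and Hmox1 on all 18 arrays by group (horizontal) and replicate number (colour and shape), with group means of 3 arrays as grey lines and the 3 arrays apart in black edges. Replicate 3 of Hspb1 is the lowest array in every group, with a wider gap in uninfected cells, and replicate 3 of Hmox1 is highest in p53ER groups and lowest in uninfected ones.

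None of the other members was called by replicate number. Hsp90aa1 1433251_at, dim and widely scattered, stood at -0.39 ± 0.28 (SE, adjusted p = 0.421) and Hspa8 1420622_a_at at -0.37 ± 0.17 (adjusted p = 0.191). In p53ER cells alone 1433251_at stood at -1.02 (adjusted p = 0.228), and its difference between cell types, -1.26 ± 0.49 (adjusted p = 0.469), was as large in size as that of Hspb1 but did not pass. Hspe1 stood at +0.21 ± 0.09 (SE, adjusted p = 0.150) for 1450668_s_at and +0.26 ± 0.11 (adjusted p = 0.146) for 1422579_at, Hsph1 1423566_a_at at -0.26 ± 0.11 (adjusted p = 0.149) and Hspa1a at -0.27 ± 0.15 (adjusted p = 0.275). Without the 3 arrays apart 5 members passed instead of 2, the added ones being Hsp90aa1 1426645_at at -0.49, Hsp90aa1 1438902_a_at at -0.36 and Hspe1 1450668_s_at at +0.27. Hspa8 1420623_x_at stood at -0.02, and at -0.24 (adjusted p = 0.00356) with quantile normalization.

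The chaperone system beyond these genes was read from 9 lists of 74 genes, of which 69 had a tested probe set, the brightest of each gene. None of the 69 was called in the 12 comparisons between groups or in replicate 2 minus replicate 1. In p53ER cells 4-OHT minus vehicle the median of the 69 was -0.02, with 1 gene at an unadjusted p under 0.05, against 3.64% of all probe sets. On replicate 3, 9 of the 69 were higher and 4 lower (adjusted p under 0.05), against 6.48% and 7.55% of all probe sets.

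Of the list of other small heat shock proteins 1 of 5 was lower, Cryab, the crystallin that forms mixed complexes with Hspb1, at -0.84 ± 0.16 (SE, adjusted p = 0.00215). It read 8.54, 8.32 and 6.60 in uninfected cells at 0 h, 8.52, 7.83 and 7.02 with vehicle and 8.32, 7.93 and 7.35 with 4-OHT. In p53ER cells it read 8.33, 8.04 and 7.74 at 0 h, 8.21, 7.79 and 7.11 with vehicle and 8.51, 7.98 and 8.27 with 4-OHT. Replicate 3 was the lowest array in each group but p53ER 4-OHT. Replicate 2 was also below replicate 1 in each group. In replicate 2 minus replicate 1 this list had a median of -0.22, with 2 of 5 genes at an unadjusted p under 0.05, against 6.62% of all probe sets. The values by cell type were -1.25 (limma adjusted p = 0.00258) in uninfected and -0.44 (adjusted p = 0.208) in p53ER cells. The difference between them did not pass (+0.82, adjusted p = 0.309).

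Of the TRiC chaperonin and prefoldin list, which folds actin and tubulin, 4 of 11 were higher, Cct5 at +0.47, Cct2 and Cct7 at +0.32 each and Tcp1 at +0.28, with adjusted p-values of 0.00759 to 0.0212. Of the list 10 of 11 had positive values, where 47.3% of all probe sets did. Values of this list also differed between the other replicates, with 9 of 11 positive in replicate 2 minus replicate 1, a median of +0.17 and 5 of 11 at an unadjusted p under 0.05, against 6.62% of all. Tcp1 in uninfected cells at 0 h read 11.00, 11.51 and 11.54. Among mitochondrial chaperones and proteases 2 of 8 were higher, Grpel1, the exchange factor of mitochondrial Hsp70, at +0.52 and the protease subunit Clpp at +0.40. Single genes were also higher in the lists of Hsp90 co-chaperones (Fkbp4, +0.42), J-domain and exchange co-chaperones (Dnajb6, +0.34) and other heat-induced genes (Sqstm1, +0.30).

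Of the 9 endoplasmic reticulum chaperones 2 were lower, Serpinh1, the collagen chaperone Hsp47, at -0.40 and Dnajb11 at -0.36. Of the 5 Hsp70 relatives 1 was lower, Hspa14 at -0.36. The 3 heat shock factors tested had a median of +0.05 with 0 called. By the test of the difference between cell types 1 of the 69 was called, against 0.407% of all probe sets. This was Hmox1, the heme oxygenase also known as Hsp32. It read 9.71, 9.35 and 10.44 at 0 h in p53ER cells and 10.12, 10.02 and 9.21 in uninfected cells. Its difference of +1.34 ± 0.23 (SE, adjusted p = 0.0180) joined +0.73 in p53ER cells (adjusted p = 0.0404) with -0.61 in uninfected cells (adjusted p = 0.0165). Hmox1 was not called without the 3 arrays apart, which include an array of each 0 h group shown.

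**Figure D5:**
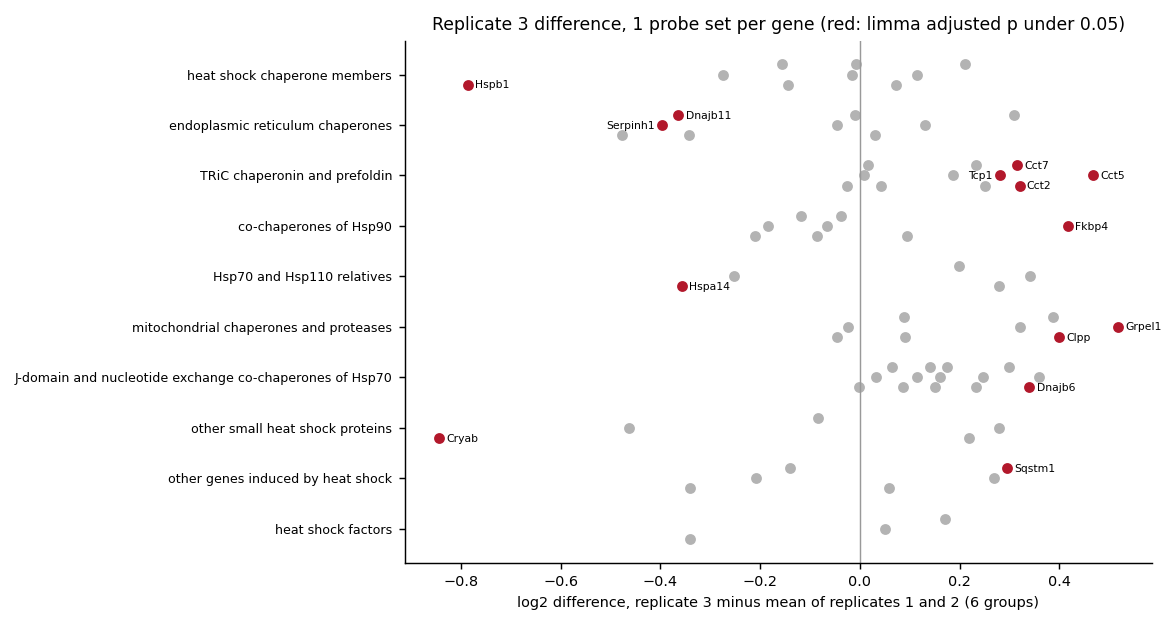
Log2 difference of replicate 3 minus the mean of replicates 1 and 2 over 6 groups, for the brightest probe set of each member gene (top row) and of each gene in 9 chaperone lists. Red points had a limma adjusted p under 0.05 and are named. Hspb1 and Cryab lie farthest left and Grpel1 farthest right.

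Members also differed in how much their arrays scattered within groups. The SD within groups was 0.15 and 0.18 for Hspa8 1420623_x_at and 1455789_x_at, 0.68 to 0.75 for the 3 bright Hsp90aa1 probe sets and 0.53 and 0.73 for Hspb1. The first pair was more even than over 95% of tested probe sets, while Hsp90aa1 exceeded the spread of 82.2% to 87.9% of them. Their scatter followed the arrays described, the 3 apart for Hsp90aa1 and replicate 3 for Hspb1.

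The probe sets outside the members whose log2 signal correlated most with the mean member profile over the 18 arrays were those of Atpsckmt (Pearson r = 0.788), 2210016F16Rik (0.763), Actr1a (0.762), Rexo4 (0.718) and Pkp2 (0.715). After group means were subtracted they were Actr1a (0.851), Cers5 (0.837), Pkp2 (0.820), Tmprss2 (0.809) and Atpsckmt (0.804). The points share arrays and their scaling, and without the 3 arrays apart these r were 0.709 to 0.812 and 0.805 to 0.855.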

How the data were processed

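Per the submitters' processing notes, the authors deposited MAS5 signal, a linear intensity for each probe set, and no version is named. After 64 control probe sets were dropped, arrays were brought to the same 2% trimmed mean (82.1) and log2(signal + 4.11) was taken, the offset being 5% of that mean. Probe sets in the upper 60% by mean (27022, mean log2 of at least 4.04) were fitted with limma (trended, robust prior) over 18 arrays with 6 group means (12 residual degrees of freedom), two-sided, threshold 0.05.

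The array annotation gave exactly 1 gene for 34945 probe sets and several for 932, and 9160 were not listed, and 34741 were named by Entrez ID. Probe sets were named by this rule: all members, every called gene of the chaperone lists, and the 5 most correlated genes. Members and lists were chosen with earlier results of these data known. Arrays of the same replicate number deviated together (r over 0.1 in every pair) in 4-OHT against vehicle in p53ER (0.146 to 0.309) and uninfected cells (0.145 to 0.413) and in p53ER 4-OHT against 0 h (0.152 to 0.302), a hint from the data only. No 2 of the 18 arrays were identical. The fits were run on simulated data with planted changes. The noise there was independent between arrays and probe sets, so that run does not cover arrays apart or other shifts shared by many probe sets. R 4.3.3, limma 3.58.1, the data.table package (1.17.8), statmod 1.5.0, pandas 2.3.3 and matplotlib 3.10.9 were used. Alternatives were quantile normalization, no offset or 20%, no filter or the upper 40%, 1 probe set per gene, the replicate block, only the groups compared, a plain prior, array weights and leaving out arrays.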

Additional observations from a re-analysis of the deposited data

Results flagged for a closer look

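The difference of replicate 3 from replicates 1 and 2 was not the same in both cell types for 3 probe sets, as tested with an interaction term in limma. Hspb1 1422943_a_at differed by +0.79 (SE 0.15, adjusted p = 0.0357) and Hspb1 1425964_x_at by +1.25 (SE 0.19, adjusted p = 0.00707), since the gene was lower on replicate 3 by more in uninfected cells, in 3 of 3 groups there. Hmox1 1448239_at differed by +1.34 (SE 0.23, adjusted p = 0.0180), since replicate 3 was the highest array in 3 of 3 p53ER groups and the lowest in 3 of 3 uninfected groups. Hmox1 was called in 20 of 27 alternative settings, and without the 3 arrays apart its adjusted p was 0.0835. The labels do not say what a replicate number stands for.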

How the results depend on the processing

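The number of member probe sets called stayed at 0 in the 12 comparisons between groups under every alternative run, the replicate block included, and with the block the 4-OHT difference of Hspa1b 1427127_x_at in p53ER cells had an adjusted p of 0.927. With the replicate block the calls over all probe sets changed from 4 to 12 (11 higher, 1 lower) for p53ER 4-OHT minus vehicle, from 4 to 25 (22 and 3) against 0 h, from 0 to 52 (47 and 5) for 4 h minus 0 h and from 7 to 27 (24 and 3) for p53ER minus uninfected cells. For replicate 3 the 2 member calls became 1 with 1 probe set per gene, 5 without the 3 arrays apart and 0 within p53ER cells alone, and leaving out single arrays gave 2 to 3. For its difference between cell types they became 1 with 1 probe set per gene and 0 with a prior without trend and robustness, and leaving out single arrays gave 0 to 2, the 0 being without p53ER 4-OHT replicate 3. Both Hspb1 probe sets kept their replicate 3 call in all 27 and 26 alternatives run over both cell types. Genes called in the chaperone lists ranged from 8 to 21, with 21 without the 3 arrays. The cause of these changes was not tested. With 3 arrays a group and no term for replicate number, the widest 95% interval of a member's 4-OHT difference was 1.17 log2 units on each side. The narrowest was 0.31.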
